A study of Mus musculus with 6 samples.

Results

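H3K9me3 was examined at 40 mouse germline genes, taken as a fixed list of symbols and located by their GENCODE M21 records on mm10, of 21938 protein-coding genes on the autosomes and sex chromosomes. All 40 symbols were found, 39 on autosomes and 1 (Tex11) on X, and autosomal counts were read against the 20807 autosomal protein-coding genes. The cells were neural stem cells (NSCs) cultured from the cerebral cortex of fetal C57BL/6J mice and infected with lentivirus carrying either a random control sequence (shCTR) or a hairpin that targets PHF8 (shPHF8), a histone demethylase, with selection on puromycin in both arms. There were 2 H3K9me3 ChIP-seq libraries per condition and 1 input per condition, of which only the ChIP libraries entered the analysis. The knockdown rests on 1 shRNA sequence and cannot be checked from peak positions. Nothing in the labels says that the libraries of a condition came from separate cultures, so the spread between them may be technical.

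H3K9me3, trimethylated lysine 9 of histone H3, is a mark of heterochromatin that HP1 proteins bind and that SETDB1 and the SUV39H enzymes deposit. Many genes of the germ line carry CpG-rich promoters that somatic cells keep silent through DNA methylation, H3K9 methylation and the non-canonical Polycomb complex PRC1.6, whose MGA-MAX and E2F6-DP1 subunits recognise E-box and E2F motifs. The genes of the list work in piRNA-guided transposon silencing, in chromosome pairing and recombination at meiosis, and in germ cell fate. The peak lists hold no expression, so the silent state named in the title of the gene list was not measured.

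The authors called broad peaks in each library and deposited their positions, with no height, score or count, so read depth is unknown from these lists and a change of height inside a peak is not seen. The 4 lists held 44316 to 55555 peaks on chromosomes 1 to 19, X and Y. Together, the peaks covered 157 and 160 Mb in shCTR replicates 1 and 2, against 219 and 197 Mb in shPHF8 replicates 1 and 2, so that any covered length has to be read against wider peaks in the shPHF8 libraries (median width 2400, 2400, 4200 and 2800 bp in the same order). Below, values follow the order shCTR replicate 1, shCTR replicate 2, shPHF8 replicate 1, shPHF8 replicate 2. A promoter window was 3 kb on either side of the start site, 6001 bases in all, and the gene body ran from the start to the end of the gene record. Of 8 markers of NSCs, 5 had a promoter peak in at least 1 library (62.5%, against 29.3% of all autosomal protein-coding genes). Pax6 had one in all 4, over its start site, Fabp7 in 3, Hes5 in both shCTR libraries, and Vim and Slc1a3 in 1 each, while Sox2, Nes and Hes1 had none. Promoter coverage was lower in both shPHF8 libraries at Fabp7 and Hes5 and higher at Pax6. Over all autosomal protein-coding genes, 4.27% were lower and 4.25% higher in this way.

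The promoter sequences show the DNA at the centre of the comparisons. RefSeq promoters on GRCm38.p6 (the mm10 assembly), 250 bases before to 50 after the start, were matched for 36 of the 40 genes, and Piwil2, Tex15, Spo11 and Tex11 had no entry. Each line gives 120 bases that end just before the most upstream annotated start, written along the gene's strand, with the E-box CACGTG and the E2F-type motif TCCCGC (or its complement strand GCGGGA) in capitals. The first 6 genes had a promoter peak in all 4 libraries and a CACGTG in these bases.
Sycp3, chr10:88459449-88459568, plus strand: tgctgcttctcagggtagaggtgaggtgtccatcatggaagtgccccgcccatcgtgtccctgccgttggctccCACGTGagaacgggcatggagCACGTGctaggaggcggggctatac
Sycp1, chr3:102936101-102936220, minus strand: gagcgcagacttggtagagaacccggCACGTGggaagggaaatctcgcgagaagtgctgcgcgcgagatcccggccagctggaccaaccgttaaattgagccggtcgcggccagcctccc
Stk31, chr6:49395484-49395603, plus strand: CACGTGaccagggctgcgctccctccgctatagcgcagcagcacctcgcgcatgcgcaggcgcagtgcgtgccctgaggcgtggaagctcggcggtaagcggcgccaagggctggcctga
Tdrd1, chr19:56826089-56826208, plus strand: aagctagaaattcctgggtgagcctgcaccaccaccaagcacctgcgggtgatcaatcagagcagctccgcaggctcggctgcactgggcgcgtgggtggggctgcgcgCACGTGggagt
Slc25a31, chr3:40708735-40708854, plus strand: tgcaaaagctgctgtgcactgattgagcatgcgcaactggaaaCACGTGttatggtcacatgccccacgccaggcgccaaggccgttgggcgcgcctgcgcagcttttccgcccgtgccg
Brdt, chr5:107331039-107331158, plus strand: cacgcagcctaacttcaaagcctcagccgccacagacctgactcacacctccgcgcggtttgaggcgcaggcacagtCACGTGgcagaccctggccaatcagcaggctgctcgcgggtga

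The next 3 genes also had a promoter peak in all 4 libraries. Smc1b and Dmc1 carry TCCCGC without the E-box, and Dazl carries neither motif in its RefSeq promoter.
Smc1b, chr15:85131965-85132084, minus strand: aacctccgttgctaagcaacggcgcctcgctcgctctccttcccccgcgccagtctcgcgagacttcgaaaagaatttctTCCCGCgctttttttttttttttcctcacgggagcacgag
Dmc1, chr15:79605110-79605229, minus strand: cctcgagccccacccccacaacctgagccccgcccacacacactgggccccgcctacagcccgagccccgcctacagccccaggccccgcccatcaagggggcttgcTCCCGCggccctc
Dazl, chr17:50293637-50293756, minus strand: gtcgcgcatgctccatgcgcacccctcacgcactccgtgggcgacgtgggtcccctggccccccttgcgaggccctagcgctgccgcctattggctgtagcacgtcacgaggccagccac

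The last pair had no promoter peak in any library. Hormad1 carries both motifs and Tdrkh carries neither.
Hormad1, chr3:95559557-95559676, plus strand: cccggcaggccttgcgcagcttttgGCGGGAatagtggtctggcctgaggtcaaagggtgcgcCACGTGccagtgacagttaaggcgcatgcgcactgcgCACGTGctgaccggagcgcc
Tdrkh, chr3:94413124-94413243, plus strand: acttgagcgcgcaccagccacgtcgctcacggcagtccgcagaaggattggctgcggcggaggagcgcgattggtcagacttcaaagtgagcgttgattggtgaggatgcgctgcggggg

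H3K9me3 peaks lay at the promoters of 21 of the 40 germline genes in all 4 libraries, in both conditions. These were 21 of the 39 autosomal genes (53.8%), where 11.7% of all autosomal protein-coding genes had such a peak (11.2% when the share was weighted to the gene lengths of the list, in 10 length classes). The 40 genes were chosen with earlier results of these data known, so the shares describe this list and were not tested. In at least 1 library, 28 of the 40 had a promoter peak (27 of 39 autosomal genes, 69.2%), against 29.3% of all. The start site itself lay under a peak in all 4 libraries in 15 genes (38.5% of the autosomal ones), against 3.78% of all autosomal genes. A promoter peak was called in none or in all 4 libraries in 84.6% of the 39 autosomal germline genes, near the 82.3% of all autosomal genes. In addition to the 21 genes marked in all 4 libraries, 12 had no promoter peak in any, 5 had one in a single library, 2 in a pair of libraries and none in 3. The gene bodies of 24 genes were overlapped by a peak in all 4 libraries (61.5% of the autosomal genes), against 30.9% of all, or 37.3% weighted to the lengths, since the genes of the list were long (median 43708 bases against 17629). The gene body includes the start site and the bases just after it, so promoter peaks also count there. Of the 21 genes marked at the promoter, 9 had a peak in the rest of the body in all 4 libraries. In 7 such a peak was present in 1 to 3 libraries, and in 5 it was absent from all. The count of 24 is therefore not separate from that of the promoters.

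**Figure D1:**
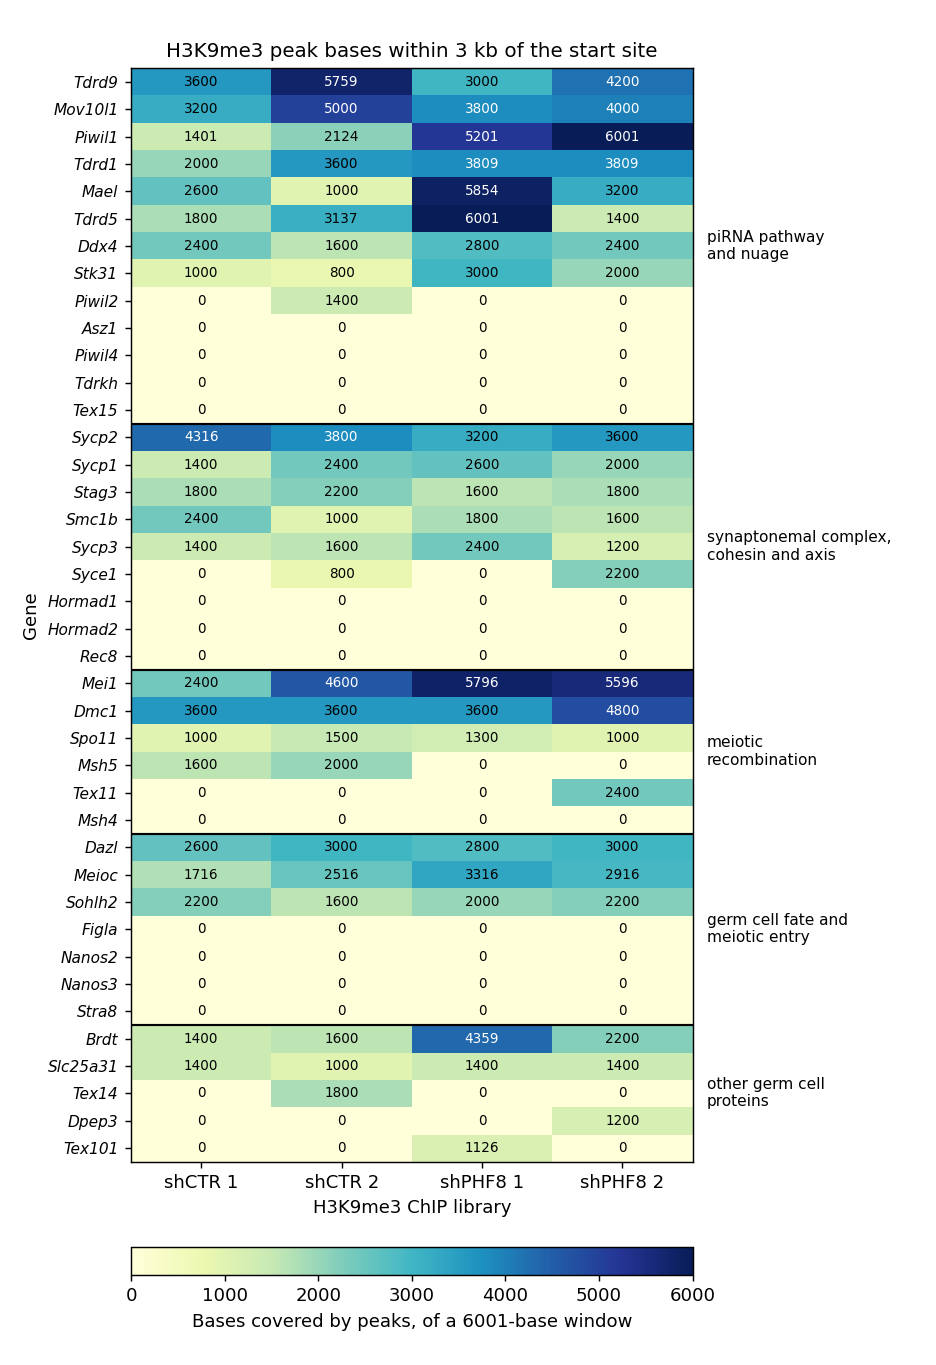
Bases covered by H3K9me3 peaks within 3 kb of the start site (colour and number, of 6001 bases) for the 40 germline genes (rows, grouped by role) in each of the 4 libraries (columns). In 21 genes every library is above 0 and in 12 every library is at 0.

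In most of the marked genes the peak covered the start site. The start was covered in all 4 libraries in 15 of the 21, and in fewer in Tdrd9 (3), Tdrd5 and Piwil1 (2 each), Meioc (1), and Stag3 and Spo11 (0). At the start site, 15, 19, 19 and 19 of the 40 genes were covered in the 4 libraries (37.5, 47.5, 47.5 and 47.5%), whereas 3 kb upstream the counts were 1, 0, 2 and 1 genes. Over all autosomal protein-coding genes the profile had no such rise, with 6.78, 7.58, 7.06 and 6.45% covered at the start site and 7.97, 8.39, 9.91 and 9.07% at 3 kb upstream. The fall was less steep on the other side. At 3 kb downstream, 3, 5, 9 and 4 of the 40 genes were covered (7.5, 12.5, 22.5 and 10.0%), against 8.2, 8.7, 8.96 and 8.17% of all. In the 15 germline genes whose start site was covered in every library, the covering peak had a median width of 2400, 1600, 3000 and 2400 bp, below the 4600, 4800, 7000 and 5200 bp over the 787 autosomal genes of that kind. The widest of these germline peaks had 4400, 5000, 6800 and 7000 bp. The median width of all peaks in each library was 2400, 2400, 4200 and 2800 bp. In the same 15 genes the peak centres lay a median of 296, 196, 474 and 342 bp downstream of the start. At least 50% of the promoter window was covered in all 4 libraries in 3 germline genes, Mov10l1, Sycp2 and Dmc1 (7.69% of the autosomal ones, against 2.80% of all). The count of 21 marked promoters changed with the width of the peaks kept. When each library was reduced to its widest peaks at a common covered length, which left only peaks of at least 4000 bp in shPHF8 replicate 1, 4 of the 40 germline promoters had a peak in all 4 libraries (10.3% of the autosomal ones), against 6.63% of all autosomal promoters.

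**Figure D2:**
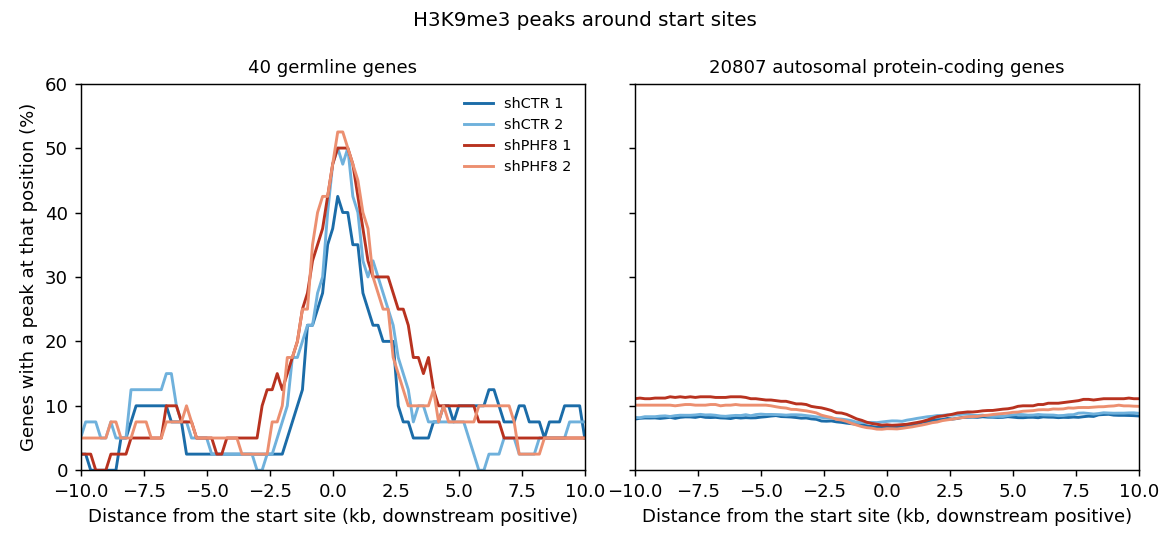
Share of genes (y axis, percent) with an H3K9me3 peak at each distance from the start site (x axis, kb, positive downstream), for the 40 germline genes (left) and the 20807 autosomal protein-coding genes (right), 1 line per library. The germline genes rise to 42.5, 50.0, 50.0 and 52.5% just downstream of the start in the 4 libraries, while all genes stay between about 6 and 12%.

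The piRNA pathway and the nuage, the perinuclear granule in which piRNAs are made, gave 13 genes, of which 8 had a promoter peak in all 4 libraries, 1 in a single library and 4 in none. Ddx4 (chr13:112598333-112652475, minus strand), the germ cell RNA helicase also called Vasa, had 2400, 1600, 2800 and 2400 covered promoter bases. Mov10l1 (chr15:88982909-89055152, plus strand), the helicase that feeds piRNA precursors to processing, had 3200, 5000, 3800 and 4000. In both helicases the conditions overlapped, and the start site was covered in every library. In Mov10l1 the gene body held 7092, 7292, 10844 and 8692 covered bases, more in both shPHF8 libraries.

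The Tudor-domain genes of the group, whose proteins bind methylated PIWI proteins, differed from one another. Tdrd1 (chr19:56826209-56870012, plus strand) had 2000, 3600, 3809 and 3809 covered promoter bases and 3392, 2992, 8004 and 9192 covered gene body bases. Both measures were higher in the shPHF8 libraries, with shCTR replicate 2 close to them at the promoter. Tdrd9 (chr12:111971559-112068854, plus strand), a helicase as well, had 3600, 5759, 3000 and 4200 promoter bases, which overlapped between conditions, and 18054, 24696, 26896 and 26096 gene body bases. Tdrd5 (chr1:156255296-156303664, minus strand) had 1800, 3137, 6001 and 1400 promoter bases, so the shPHF8 libraries held both the highest and the lowest value. Tdrkh, whose protein tethers PIWI proteins to mitochondria and whose promoter is shown above, had no peak at promoter or gene body in any library.

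Mael (chr1:166201201-166238747, minus strand), a nuage protein, had 2600, 1000, 5854 and 3200 covered promoter bases, with the shPHF8 values above both shCTR values and a mean difference of 2727 bases. Stk31 (chr6:49395604-49469501, plus strand), a Tudor and kinase domain protein of the testis, had a single peak at its start of 1000, 800, 3000 and 2000 bp. Its gene body went the other way, with 21397, 17997, 9797 and 797 covered bases. In shPHF8 replicate 2, Stk31 was covered at the start site and nowhere in the rest of the body, where the shCTR libraries had 20600 and 17400 covered bases.

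The PIWI genes encode the proteins that carry piRNAs. Piwil1 (chr5:128702524-128755474, plus strand) lay in a wide marked domain, with 1401, 2124, 5201 and 6001 covered promoter bases and 18400, 15400, 38751 and 36751 covered gene body bases. The gene body difference of 20851 bases was the largest of the list, with both shPHF8 libraries far above both shCTR libraries. The start site used here is the 5' end of the GENCODE record. The RefSeq start of Piwil1 lies 33722 bases inside the gene, in a gap that no library covered. Piwil2 had 1400 promoter bases in shCTR replicate 2 only, with 783 in the gene body, and Piwil4 had none. Asz1, a nuage protein at mitochondria, and Tex15, a nuclear partner of transposon silencing, were also without any peak.

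The synaptonemal complex joins paired chromosomes, and meiotic cohesins and axis proteins build its base. Of these 9 genes, 5 had a promoter peak in all 4 libraries, 1 in a pair of libraries and 3 in none. Sycp1 (chr3:102818499-102936100, minus strand), the transverse filament, had 1400, 2400, 2600 and 2000 covered promoter bases. Sycp3 (chr10:88459569-88473236, plus strand), of the lateral element, had 1400, 1600, 2400 and 1200, all in a single peak over the start site. The values of both genes overlapped between conditions. Sycp2 (chr2:178345293-178407685, minus strand), the partner of Sycp3, had 4316, 3800, 3200 and 3600 promoter bases, lower in both shPHF8 libraries, with a mean difference of -658 bases. The gene body of Sycp2 was covered over 26685, 23285, 23885 and 6485 bases, so shPHF8 replicate 2 stood apart from the other 3 libraries.

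Of the meiotic cohesin genes, Smc1b (chr15:85064689-85131964, minus strand) had 2400, 1000, 1800 and 1600 covered promoter bases. Stag3 (chr5:138280240-138312393, plus strand) had 1800, 2200, 1600 and 1800, beside a GENCODE start that no library covered. The windows of both also hold the start of another protein-coding gene (Ribc2 beside Smc1b, Gpc2 and Gm43720 beside Stag3), so a peak there cannot be given to 1 of the neighbours. Of the 40 genes only Tex14 shares this, with Rad51c, and 19 of the 21 marked genes have no other coding start in the window. Rec8, the kleisin subunit of the same complex, had no peak.

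Syce1, of the central element, had 0, 800, 0 and 2200 promoter bases and a gene body peak in shPHF8 replicate 2 alone (2200 bases). Hormad1, of the chromosome axis, had no promoter peak and 1000 gene body bases in shPHF8 replicate 2. Hormad2 (chr11:4345814-4441105, minus strand), its paralog, had no promoter peak either, although the gene body carried 8800, 4600, 9800 and 9200 covered bases. Both paralogs were therefore free of called H3K9me3 at the start site in every library.

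Of the 6 recombination genes, 3 had a promoter peak in all 4 libraries. Spo11 (chr2:172977700-172993576, plus strand), which makes the double-strand breaks of meiosis, had 1000, 1500, 1300 and 1000 covered promoter bases, with the start site uncovered in all libraries. Dmc1 (chr15:79561497-79605109, minus strand), the meiotic strand exchange protein, had 3600, 3600, 3600 and 4800 promoter bases and 3013, 2509, 4909 and 5909 gene body bases. Its promoter was covered over the same length in 3 libraries, and its body over more bases in both shPHF8 libraries. Mei1 (chr15:82069996-82126814, plus strand), needed for break formation, had 2400, 4600, 5796 and 5596 promoter bases and 1805, 5605, 8805 and 6605 gene body bases. Both were higher in the shPHF8 libraries, with shCTR replicate 1 well below shCTR replicate 2.

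Msh5 (chr17:35028605-35046745, minus strand), which acts in crossover formation, was the gene of the list that had a promoter peak in both shCTR libraries and in neither shPHF8 library. It had 1600, 2000, 0 and 0 covered promoter bases and 1600, 5000, 0 and 0 gene body bases, where 2.21% of autosomal genes lost a promoter peak in this way. The peak lay inside the gene, from 945 and 545 bases downstream of the start, and did not cover the start site. A promoter peak present in both shPHF8 libraries and neither shCTR library was seen in 0 of the 40 genes, against 1.07% of all. Msh4, the partner of Msh5, had no peak, and Tex11, on X, had 2400 promoter bases and 467 gene body bases in shPHF8 replicate 2 alone.

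Among the 7 genes of germ cell fate and meiotic entry, 3 were marked at the promoter in all 4 libraries and 4 in none. Dazl (chr17:50279395-50293636, minus strand), an RNA-binding protein that licenses germ cells for gametogenesis, had 2600, 3000, 2800 and 3000 covered promoter bases, the most even values among the marked genes of this group. Sohlh2 (chr3:55182028-55209957, plus strand), a transcription factor of spermatogonia and oocytes, had 2200, 1600, 2000 and 2200 promoter bases and 4773, 4173, 7930 and 7773 gene body bases. The Sohlh2 promoter overlapped between conditions, and the body did not. Meioc (chr11:102663716-102682237, plus strand), which keeps germ cells in meiotic prophase, had 1716, 2516, 3316 and 2916 promoter bases, higher in both shPHF8 libraries. Its gene body, with 5400, 6800, 6885 and 6200 covered bases, overlapped between conditions.

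Stra8, the retinoic acid target that starts meiosis, and Nanos2 and Nanos3, RNA-binding proteins that protect germ cells, had no peak at promoter or gene body in any library. Figla, an oocyte transcription factor, had 996 gene body bases in shPHF8 replicate 2 and no promoter peak. In all, 9 of the 40 genes had no peak at either place in any library.

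Of the remaining 5 genes, 2 had a promoter peak in all libraries and 3 in a single one. Slc25a31 (chr3:40708855-40726096, plus strand), the ADP/ATP carrier of the testis, had 1400, 1000, 1400 and 1400 covered promoter bases in a single peak over the start. Brdt (chr5:107331159-107387058, plus strand), a bromodomain protein of spermatids, had 1400, 1600, 4359 and 2200 promoter bases and 242, 1242, 6842 and 4442 gene body bases. Both Brdt measures were higher in the shPHF8 libraries, and its body mean was 7.60-fold that of shCTR. Tex101 (chr7:24668007-24676675, minus strand), a sperm surface protein, had 0, 0, 1126 and 0 promoter bases and 2200, 2000, 4800 and 3000 gene body bases. Tex14 (chr11:87405065-87555823, plus strand), of the bridges between germ cells, had 7800, 5336, 5400 and 3600 gene body bases with a promoter peak in shCTR replicate 2 alone, and Dpep3, a testis dipeptidase, had 229 gene body bases in shPHF8 replicate 2.

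Knockdown of PHF8 was compared with the control by asking in which genes the values of the 2 conditions did not overlap. Promoter coverage was higher in both shPHF8 libraries than in both shCTR libraries in 7 germline genes (Brdt, Mael, Mei1, Meioc, Piwil1, Stk31 and Tdrd1), where 4.25% of autosomal genes were called this way. It was lower in Msh5 and Sycp2, where 4.27% were. For Piwil1 and Mei1 the window surrounds the GENCODE start, and no library covered their RefSeq starts, 33722 and 12480 bases away. Among autosomal genes with a promoter peak in at least 1 library the shares were 14.5% higher and 14.6% lower, and among the 27 autosomal germline genes of that kind they were 25.9 and 7.41%. Gene body coverage was higher in 10 germline genes and lower in 2 (Msh5 and Stk31), against 13.7 and 6.30% of all autosomal genes. Weighted to the gene lengths of the list, those shares of all genes were 16.5 and 7.76%. Among the genes with a gene body peak, the shares were 33.3 and 6.67% of 30 germline genes, against 27.8 and 12.8% of all. The exact permutation test cannot reach the 0.05 threshold for any gene, since the smallest two-sided p it can give with 2 libraries against 2 is 0.333.

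**Figure D3:**
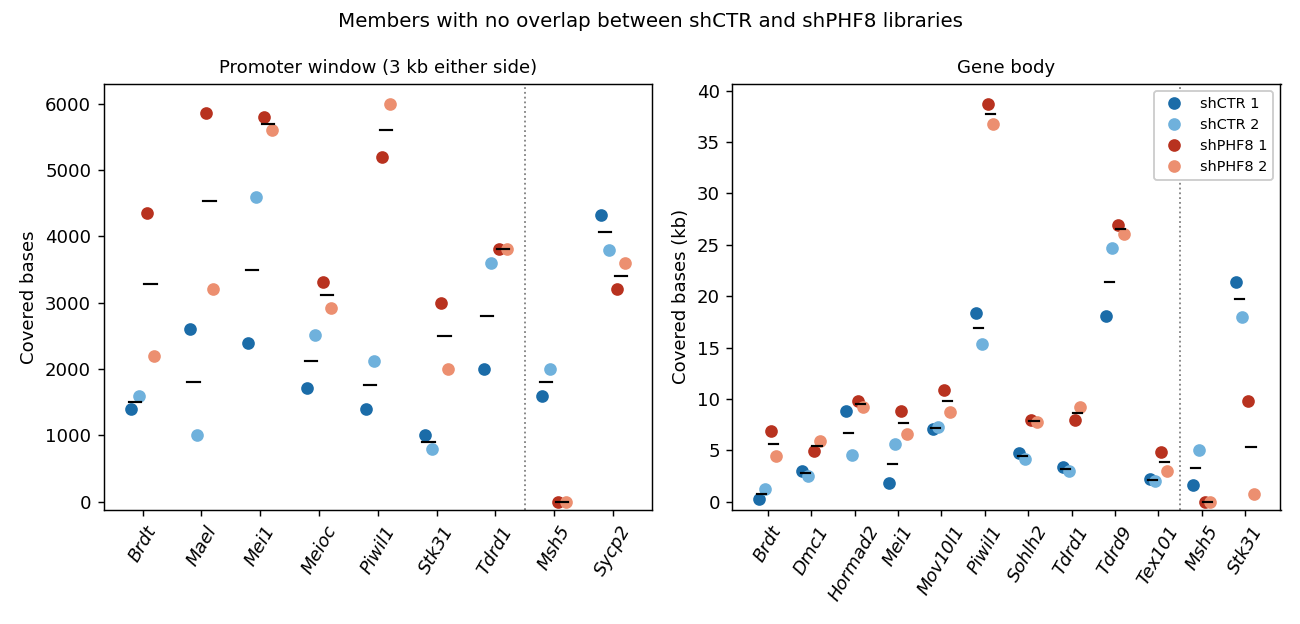
Covered bases per library (points) and condition means (black bars) for the germline genes whose shCTR and shPHF8 libraries did not overlap, in the promoter window (left, bases) and the gene body (right, kb). Genes left of the dotted line were higher in both shPHF8 libraries (7 promoters, 10 bodies), and those to the right were lower (Msh5 and Sycp2, Msh5 and Stk31).

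The total covered length was 1.32 times as large in the shPHF8 libraries. Summed over the 40 promoters, the covered bases were 47233, 59436, 70762 and 66122, a ratio of 1.28 between the condition means, where the sum over all autosomal promoters had a ratio of 1.01. The condition means differed by 15107.5 bases, to which Piwil1 added 3838.5 and Mei1 2196, both in windows away from their RefSeq starts. For gene bodies the ratio was 1.2 for the germline genes and 1.2 for all. Scaling each library to the same covered length lowers every shPHF8 value against shCTR by construction. After it, 3 germline promoters were higher and 7 lower (11.1 and 25.9% of 27), where the promoters of all autosomal genes with a peak gave 8.93% higher and 31.7% lower. The gene bodies gave 6 higher and 7 lower (20.0 and 23.3% of 30), where all autosomal genes with a peak gave 14.9 and 29.8%. The split therefore moved toward lower calls in the germline genes and in all genes. Peak width and condition moved together across these libraries and cannot be told apart.

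**Figure D4:**
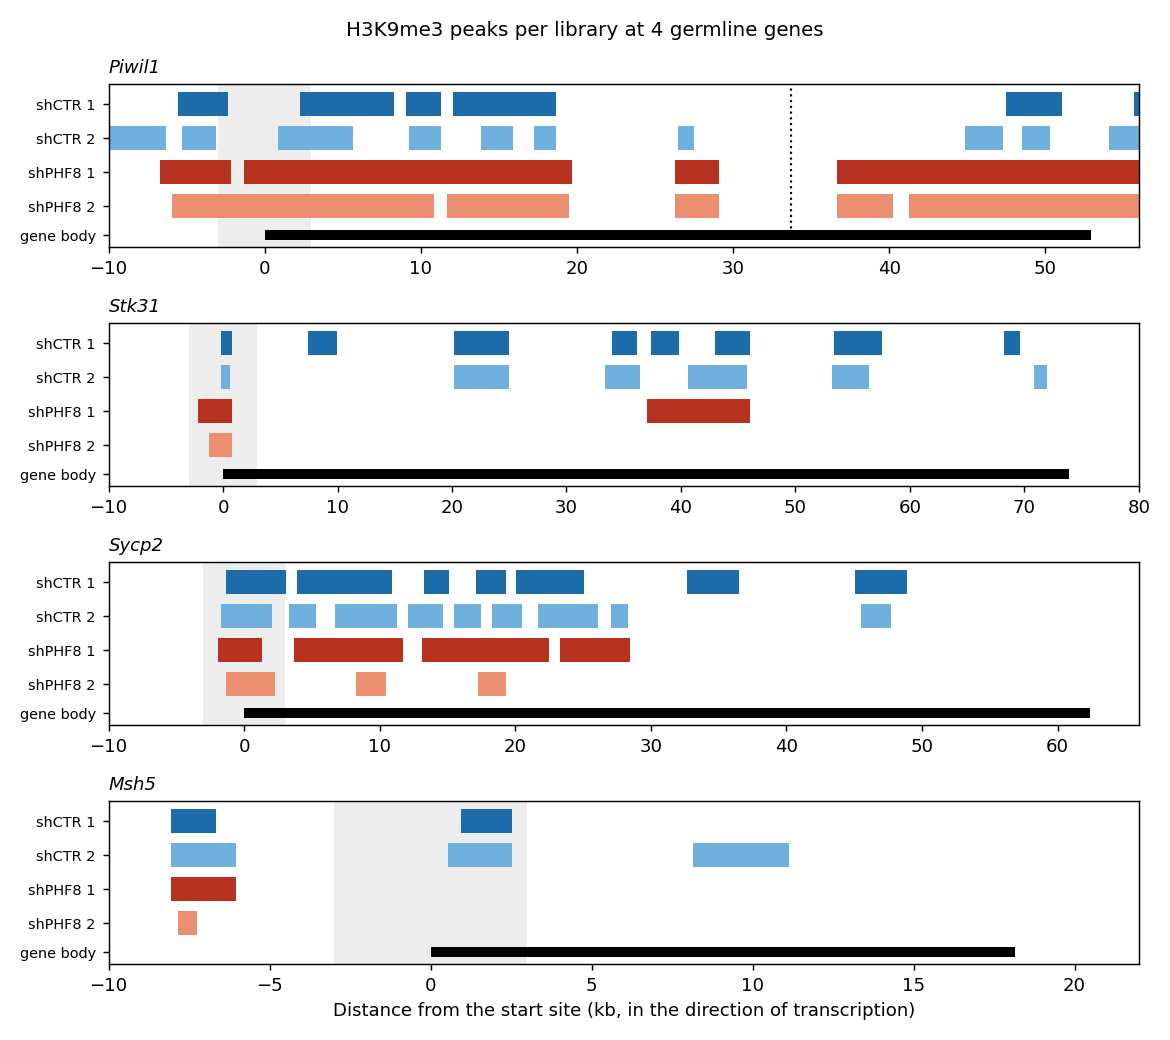
H3K9me3 peaks (coloured bars, 1 row per library) by distance from the start site (x axis, kb, along the direction of transcription) at Piwil1, Stk31, Sycp2 and Msh5, with the gene body in black, the promoter window shaded and the RefSeq start of Piwil1 as a dotted line. Piwil1 has wider peaks in both shPHF8 libraries, Stk31 keeps its start peak while its body peaks are fewer, and the Msh5 peak inside the window is present in the shCTR libraries only.

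Promoter composition was set beside the presence of a peak, with no test. The ratio of observed to expected CpG in the RefSeq promoter had a median of 0.74 in the 20 genes with a peak in all 4 libraries (range 0.36 to 1.11), 0.54 in the 11 with none (0.00 to 0.96) and 0.61 over 15686 autosomal genes. The lowest values of the list were those of Nanos2 (0.00) and Nanos3 (0.13), both without a peak. Among promoters with a ratio of 0.6 or more, the RefSeq start lay under a peak in all 4 libraries in 14 of 22 germline genes, where 3.07% of 8038 autosomal genes of that class did. From 0.4 to under 0.6 it did in 2 of 11 germline genes, against 6.30% of 1904 autosomal genes. Under 0.4 it did in 1 of 3, against 2.73% of 5744. The ranges overlapped, and CpG-rich members without a peak were Tdrkh (0.96), Asz1 (0.78), Rec8 (0.72) and Hormad1 (0.71). These shares are descriptions of 36 genes, which are not replicates.

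**Figure D5:**
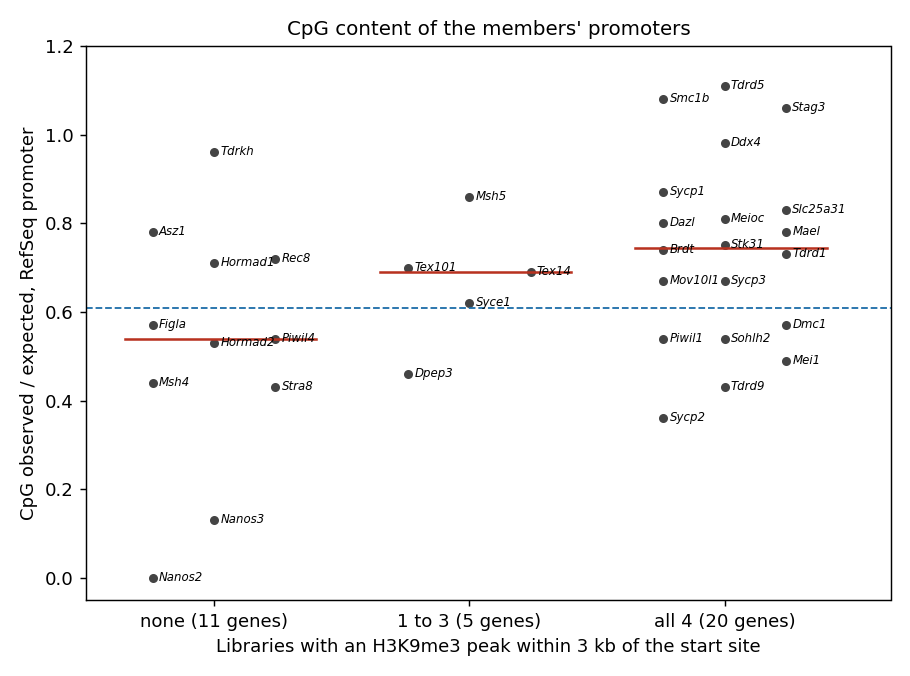
Ratio of observed to expected CpG in the RefSeq promoter (y axis) of the 36 germline genes with an entry, by the number of libraries with a promoter peak (x axis), with a red bar for each median and a dashed line for the median of 15686 autosomal genes (0.61). The medians are 0.54, 0.69 and 0.74 from none to all 4 libraries, and the groups overlap.

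Motifs were searched as exact letters on both strands of the RefSeq promoters, CACGTG being its own complement and TCCCGC being read also as GCGGGA. A match of one motif can overlap a match of the other by at most 1 base. CACGTG was present in 12 of the 20 genes marked in all 4 libraries (60%), in 1 of the 11 without a promoter peak (Hormad1, 9.09%) and in 8.10% of all promoters. TCCCGC was present in 10 of the 20 (50.0%), in 2 of the 11 (Hormad1 and Rec8, 18.2%) and in 27.2% of all. Among autosomal promoters with a CpG ratio of 0.6 or more, 11.5% held CACGTG and 44.0% held TCCCGC. The 22 germline genes of that class, marked or not, held them in 50.0 and 59.1%. Of the 12 marked genes with CACGTG, Piwil1 is counted with the promoter at its RefSeq start, which no peak covered. Counted instead by the RefSeq start, 10 of 17 germline genes covered in all 4 libraries held CACGTG (58.8%), and 2 of 15 covered in none (13.3%). Over the 524 autosomal genes whose RefSeq start was covered in all 4 libraries, 10.9% held CACGTG. The choice of start also mattered elsewhere. The RefSeq starts of Stag3, Meioc and Tex101, which lie 269, 1869 and 4625 bases from their GENCODE starts, were covered in all 4 libraries where the GENCODE starts were not, and that of Mei1, at 12480 bases, was covered in none. A match describes letters in this window, and the binding of a factor was not measured. Soft-masked repeats took up a median of 24.7% of the promoter window in marked and 26.0% in unmarked germline genes, against 21.6% over all autosomal genes.

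A list of 30 other germline genes was examined in the same way. In 8 of them (26.7%) the start site was covered in all 4 libraries, against 3.78% of all autosomal genes. In 11 (36.7%) the promoter had a peak in all 4, against 11.7% of all. These were Tdrd6 of the nuage, Syce3, Tex12 and Rad21l of the synaptonemal complex and axis, Meiob and Spata22 of recombination, the germ cell transcription factors Sohlh1 and Lhx8, the oocyte protein Dppa3, and the RNA-binding proteins Cpeb1 and Boll. Tdrd6 was covered over 4302, 4302, 6001 and 6001 promoter bases and Tex12 over 800, 1200, 1000 and 1200. Promoter coverage was higher in both shPHF8 libraries in 4 of the 30 genes (13.3%) and lower in 3 (10.0%), against 4.25 and 4.27% of all. Gene body coverage was higher in 3 (10.0%) and lower in 6 (20.0%), against 13.7 and 6.30% of all. More of these bodies were lower than higher, unlike those of the 40 genes, and the difference between the lists was not tested. In this list, Pld6, Nobox and Zcwpw1 (10.0%) had a promoter peak in both shCTR libraries and in neither shPHF8 library, as Msh5 did. The share over all autosomal genes was 2.21%. The values of Nobox were 2600, 2600, 0 and 0 bases. The Spata22 window also holds the coding starts of Aspa and Gm49340, and the Zcwpw1 window that of Mepce. Peaks in those windows cannot be given to a single gene.

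The 15 genes of the silencing complexes (subunits of PRC1.6, and SETDB1 with its cofactors) were covered at the start site in all 4 libraries in 0 cases, which with 3.78% of all genes is near the background for so short a list. Ring1, with 2121, 1921, 1921 and 1921 covered promoter bases, and Atf7ip, with 1567, 2167, 3601 and 3001, had a promoter peak in every library that did not cover the start site in any. Mga, Wdr5, Rybp, E2f6, Tfdp1 and Setdb1 had a promoter peak in 1 to 3 libraries. Of the 15 promoters, 2 had a peak in all 4 libraries (13.3%), near the 11.7% of all autosomal genes. In at least 1 library 8 had one (53.3%), against 29.3% of all.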

How the data were processed

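Per the labels and methods, the authors sequenced single-end reads, aligned them to mm10 and called broad peaks in each library with SICER2. The study's methods name SOAPaligner, whereas the submitters' processing notes name Bowtie2 2.3.5.1, SAMtools 1.9 and deepTools. Window size, gap, false discovery rate and use of the input are not given in the sources used here. The deposited lists hold positions only, with no read count, score or signal. Starts were read as 0-based and ends as inclusive (all widths are then multiples of 200 bp), and 2 peaks per library on other sequences were left out. Peak ends lay within the GRCm38.p6 chromosome lengths.

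Covered bases per library were computed with Python 3.11.15 and numpy 2.4.6 for the promoter window (3 kb on either side of the 5' end of the GENCODE M21 record) and the gene body, tested on simulated data and against bedtools 2.31.1. A gene was called where the 2 libraries of a condition did not overlap those of the other. The comparison with genes of similar length used a share weighted over 10 length classes. Values were printed for genes with a promoter peak in all 4 libraries, for genes whose conditions did not overlap with means at least 1000 bases apart, and for those with the most and least covered body among the rest of each role. Sycp2 met the first of these. The 40 genes and all gene lists were chosen with earlier results of these data known. Intervals and floors that need counts were not given. Alternatives were other windows and starts, peak width, merging, scaling, 50% coverage, pairing by replicate number and leaving out each library.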

Additional observations from a re-analysis of the deposited data

How the results depend on the processing

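The 83 alternative values comprised 50 that stayed near those reported, 31 that moved and 2 that changed sign. A count was near when it lay within a fixed fold of the reported count. The summed promoter difference, 15107.5 bases, was near when it moved by less than 8628.8 bases, the larger standard deviation between replicates. That is a wide limit, under which 9006 and 21209 bases both counted as near. Within 1 kb of the start site, 1 promoter was lower in shPHF8 and the summed difference was 6192 bases, and 3 kb upstream alone 0 were lower. These windows are narrower than the main one, so they can hold fewer covered bases by construction. When each library was reduced to its widest peaks at a common covered length, 4 promoters and 12 gene bodies had a peak in all libraries, 4 promoters were higher and 8 lower (16.0 and 32.0% of those with a peak, against 8.91 and 25.4% of all genes), 4 bodies were higher and 10 lower (14.8 and 37.0%, against 13.2 and 30.0%), and the summed promoter difference was -15147 bases. After scaling every library to 1 total covered length, 3 promoters were higher and 7 lower, 6 bodies were higher and 7 lower, and the summed difference was -1178.4 bases. Both settings shrink the shPHF8 libraries by construction. With peaks within 5 kb merged, 4 bodies were lower. With at least 50% of the window covered, 3 promoters passed in all libraries (2.80% of all genes did), 11 in at least 1 (9.39%), and 0 bodies in all (2.59%).

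Leaving out each library in turn kept the count of promoters with a peak in all remaining libraries at 21 and that of bodies at 24, and the count with a promoter peak in at least 1 library ranged from 26 to 28. Promoters higher in shPHF8 ranged from 10 to 12 and lower from 3 to 8, bodies higher from 11 to 16 and lower from 4 to 7, and the summed difference from 9006 to 21209 bases. Fewer libraries overlap less often by construction. The largest count of lower promoters, 8, came without shCTR replicate 1, where 11 were higher; 4 were lower without shPHF8 replicate 1 or 2, where 11 and 12 were higher. Bodies lower numbered 7 without shPHF8 replicate 1, 5 without shCTR replicate 2 and 4 without either of the others, and bodies higher 16 without either shPHF8 library.

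Same-numbered libraries did not deviate together (r = -0.03 across 6100 genes, which are not independent), so the numbers were not taken to pair them. With the replicate block (number 1 and number 2 as pairs), both pairs changed the same way in 8 promoters upward and 4 downward, and in 13 bodies upward and 5 downward. The position lists hold no depth. The study reports mapped reads per library, and no value was set against them here.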
